A study of Mus musculus with 2 samples.

Results

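The Slit and Robo genes were taken as the 3 genes Slit1, Slit2 and Slit3 and the 4 genes Robo1, Robo2, Robo3 and Robo4, found by matching Ensembl gene identifiers to mouse symbols. All 7 were in both gene tables, among 43346 genes, and they carried 49 of the 103639 transcripts in the transcript tables. Total RNA was sequenced from hindbrain dissected from healthy B6NCrl mouse embryos of both sexes at embryonic day 15.5. The 1 group held 2 libraries, labelled as biological replicates, and each was a pool of embryos (78 in replicate 1 and 62 in replicate 2), so differences between single embryos were not measured. Each library was made from 10 ng of mirVana-extracted RNA above 200 nt with spike-ins, and neither pool carried a transgene or treatment. There was no contrast between conditions, and the levels, the transcripts behind them and the difference between the pools are described without p-values. Levels are in TPM, a relative transcript abundance corrected for length and library size, and errors are SDs over the 2 libraries (mean ± SD, n = 2).

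Slit proteins are large secreted proteins that repel growing axons and migrating cells, and they are read by transmembrane receptors of the Robo family. At the midline the floor plate secretes Slit, and axons that have crossed are kept from crossing again through Robo1 and Robo2. Robo3 is needed for commissural and precerebellar neurons of the hindbrain to send axons across the midline, and Robo4 is best known as a receptor of endothelial cells. Heparan sulfate proteoglycans help Slit bind Robo, and the receptors act on the cytoskeleton through small GTPases and their regulators.

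Several members had transcripts that differ by short exons or by their ends. Some of the segments that tell them apart are printed here because the transcript shares described further on turn on them. They were chosen after the values had been seen. Sequences come from GENCODE M21 transcripts on GRCm38, 5′ to 3′ on the gene's own strand, with the segment in capitals and transcript sequence beside it in lower case.
Slit2, exon 16 of Slit2-202 (24 nt, chr5:48220967-48220990, + strand): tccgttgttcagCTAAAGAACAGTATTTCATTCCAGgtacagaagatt
Slit2, exon 31 of Slit2-217 (27 nt, chr5:48263641-48263667, + strand): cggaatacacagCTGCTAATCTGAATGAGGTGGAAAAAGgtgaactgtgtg
Slit3, start of exon 1 of Slit3-202 (44 nt, chr11:35544685-35544728, + strand): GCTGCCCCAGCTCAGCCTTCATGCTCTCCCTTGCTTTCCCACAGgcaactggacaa
Slit3, end of exon 9 of Slit3-202 (200 nt, chr11:35612437-35612636, + strand): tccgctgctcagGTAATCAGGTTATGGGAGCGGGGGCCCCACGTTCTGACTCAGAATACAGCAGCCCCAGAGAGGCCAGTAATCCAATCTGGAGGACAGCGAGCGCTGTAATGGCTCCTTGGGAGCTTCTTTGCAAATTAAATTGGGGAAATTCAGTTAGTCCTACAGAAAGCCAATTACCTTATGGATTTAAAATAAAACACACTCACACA
Robo2, exon 21 of Robo2-203 (126 nt, chr16:73933046-73933171, − strand): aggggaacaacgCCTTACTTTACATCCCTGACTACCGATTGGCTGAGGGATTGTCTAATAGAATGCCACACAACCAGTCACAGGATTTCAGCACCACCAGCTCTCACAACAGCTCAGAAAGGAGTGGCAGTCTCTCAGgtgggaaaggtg
Robo2, exon 26 of Robo2-203 (273 nt, chr16:73898912-73899184, − strand): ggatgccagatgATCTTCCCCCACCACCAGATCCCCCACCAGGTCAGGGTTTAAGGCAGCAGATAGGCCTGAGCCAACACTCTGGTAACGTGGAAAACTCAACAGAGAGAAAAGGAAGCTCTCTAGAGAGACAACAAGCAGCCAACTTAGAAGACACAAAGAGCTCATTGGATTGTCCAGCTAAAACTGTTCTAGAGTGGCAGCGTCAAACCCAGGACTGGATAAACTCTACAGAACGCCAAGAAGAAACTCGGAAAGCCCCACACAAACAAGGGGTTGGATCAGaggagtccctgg
Robo4, part of exon 13 of Robo4-203 (21 nt, chr9:37410679-37410699, + strand): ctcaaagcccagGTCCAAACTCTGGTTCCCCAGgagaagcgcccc
The 24-nt, 27-nt, 126-nt, 273-nt and 21-nt segments lie inside coding sequence and have a length divisible by 3, so they add residues without shifting the frame. The Slit3 segments are the parts of the outer exons of a noncoding transcript that reach into introns of the coding transcript Slit3-201. The tables were made with the older release M4, in which Slit2-202, Slit2-216, Slit2-217, Robo2-201, Robo2-203, Robo2-205, Robo3-202, Robo4-201 and Robo4-203 have other lengths than in M21. Whether those older models hold or lack these segments was not checked, and each share of a segment joins the TPM of the tables to M21 exons.

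Slit2 and Slit3 are also the host genes of a microRNA, miR-218, whose mature sequence is shown with its seed (bases 2 to 8) in capitals, from RefSeq on GRCm38.p6.
mmu-miR-218-5p: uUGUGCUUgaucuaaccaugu
The same 21 nt are encoded at chr5:48223966-48223986 in intron 16 of Slit2-202 and at chr11:35616840-35616860 in intron 14 of Slit3-201. The letters AAGCACA, the reverse complement of this seed, were searched on the sense strand in the longest annotated 3′ UTR of each gene. These UTRs were not all measured as expressed, since Slit2-208 and Robo3-201 were at 0 in both libraries and Robo1-206 and Robo4-205 are not in the tables. The letters occurred in 4 of the 7 members, with 2 matches in Slit2, 2 in Robo2, 1 in Robo1 and 1 in Robo3, and they were absent from these windows of Slit1, Slit3 and Robo4. In the 3′ UTR of the coding transcript of highest TPM, the same 4 members held 1 match each (Slit2-202, Robo1-201, Robo2-202 and Robo3-202) and the other 3 none. Of 20674 coding genes with a 3′ UTR, 13.9% held a match, and of those with 1000 nt or more 24.3% did. The UTRs searched were 3492 nt in Slit2, 1733 nt in Robo1, 3987 nt in Robo2 and 343 nt in Robo3. The match nearest the stop codon is printed for each, with the matched letters in capitals.
Slit2: aatactagcagAAGCACAtctacaagagc
Robo1: tttggttttaaAAGCACAatcactaaact
Robo2: tatttggtgatAAGCACAaatctctactc
Robo3: gtgactcactgAAGCACActgtctacaac
A match describes letters only and was not tested as a site. The RNA measured here was above 200 nt, so mature miR-218 was not measured. The annotated hairpin gene Mir218-1 held 0 and 2 estimated counts in replicates 1 and 2, and Mir218-2 held 0 in both.

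The gene tables held 40020322 estimated counts in genes in replicate 1 and 43263959 in replicate 2. Of 12 hindbrain markers 11 were detected, that is at 1 TPM or more in both libraries, led by Hoxa5 (88.55 ± 6.65 TPM) and Gbx2 (32.8 ± 2.64 TPM). Of these 12, 10 were higher in replicate 2, and among them Ptf1a passed 1.5-fold (1.15 and 2.18 TPM). En1 (6.37 and 3.03 TPM) and En2 (1.07 and 0.48 TPM), the 1 not detected, were lower in replicate 2 by more than 1.5-fold. Ptf1a, En1 and En2 are named after their values were seen. The pools also differed in markers of neighbouring tissue and of some hindbrain cell types. Summed TPM of 8 forebrain markers, of which 1 was detected, was 25.97 in replicate 1 and 49.6 in replicate 2, and Neurod6 (29.5 ± 8.29 TPM) and Dlx1 (2.91 ± 3.69 TPM) were the highest. For 6 spinal cord markers, also with 1 detected, the sums were 2.19 and 15.8 TPM, led by Hoxb9 (7.22 ± 7.81 TPM) and Hoxa9 (1.61 ± 1.65 TPM), and Hoxc10 was at 0 in both. Markers of the rhombic lip and of commissural or precerebellar neurons, all 8 detected and led by Barhl1 (41.8 ± 9.46 TPM) and Pou4f1 (40.8 ± 9.14 TPM), summed to 241 TPM in the first pool and 128 TPM in the second. Most of that difference lay in Lhx9 and Lhx2, without which the sums over the other 6 were 140 and 105 TPM, and Atoh1 was higher in the second pool (11.3 and 14.4 TPM).

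Of the ligand genes, Slit2 was highest and Slit3 lowest over all transcripts, and all 3 were detected. Over coding transcripts alone, Slit1 (19.3 ± 1.41 TPM) stood above Slit2 (8.92 ± 0.523 TPM). Slit1 (ENSMUSG00000025020.7, chr19:41600257-41743665, − strand) had 18.27 and 20.76 TPM in replicates 1 and 2, a mean of 19.5 ± 1.76 TPM. Slit2 (ENSMUSG00000031558.11, chr5:47983138-48307733, + strand) had 21.67 and 23.7 TPM, a mean of 22.7 ± 1.44 TPM. Slit3 (ENSMUSG00000056427.6, chr11:35121224-35708507, + strand) had 10.02 and 10.48 TPM, a mean of 10.25 ± 0.325 TPM. The 2 values of each ligand gene lay apart from those of the other ligand genes, with Slit2 above Slit1 by a factor of 1.19 in replicate 1 and 1.14 in replicate 2. Summed over the 3 genes, ligand transcripts made up 49.96 and 54.9 TPM (52.45 ± 3.52). In bulk tissue, fewer cells of a type and less RNA per cell cannot be told apart. The floor plate, a known source of Slit at the midline, had 5 of 6 markers detected, with sums of 85.96 and 104 TPM and Spon1 (57.3 ± 4.02 TPM) and Ntn1 (18.75 ± 1.71 TPM) highest. Of 7 markers of cranial motor neurons, which are known to make Slit, 6 were detected, with sums of 127 and 96.6 TPM and Prph (57.2 ± 17.8 TPM) highest. The part of these cells in the Slit levels was not tested.

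Robo2 was the receptor gene of highest level, well above the other 6 members, and Robo4 was the lowest of the 7. Robo2 (ENSMUSG00000052516.13, chr16:73891839-74411825, − strand) had 70.8 and 67.0 TPM in replicates 1 and 2, a mean of 68.9 ± 2.66 TPM. It held 62.6% and 62.9% of the summed TPM of the Robo genes. Robo1 (ENSMUSG00000022883.10, chr16:72308306-73046095, + strand), the other receptor known for repelling axons that have crossed, had 28.3 and 22.8 TPM, a mean of 25.5 ± 3.90 TPM. Robo2 stood above Robo1 by a factor of 2.50 in replicate 1 and 2.94 in replicate 2. The 2 genes are neighbours on chromosome 16, with 846 kb between them.

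Robo3 (ENSMUSG00000032128.10, chr9:37415669-37433246, − strand), the divergent receptor of axons that are crossing, had 10.55 and 11.55 TPM, a mean of 11.05 ± 0.707 TPM. Robo4 (ENSMUSG00000032125.15, chr9:37401897-37415115, + strand) had 3.4 and then 5.2 TPM, a mean of 4.3 ± 1.27 TPM. Robo3 and Robo4 lie tail to tail on chromosome 9, 553 nt apart. Robo3 was the higher of that pair in both libraries. Summed over the 4 genes, receptor transcripts made up 113 and 106.57 TPM (109.8 ± 4.57). The receptor sum was 2.26 times the ligand sum in replicate 1 and 1.94 times in replicate 2. It takes in all 4 Robo genes, and whether each reads Slit was not tested.

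**Figure D1:**
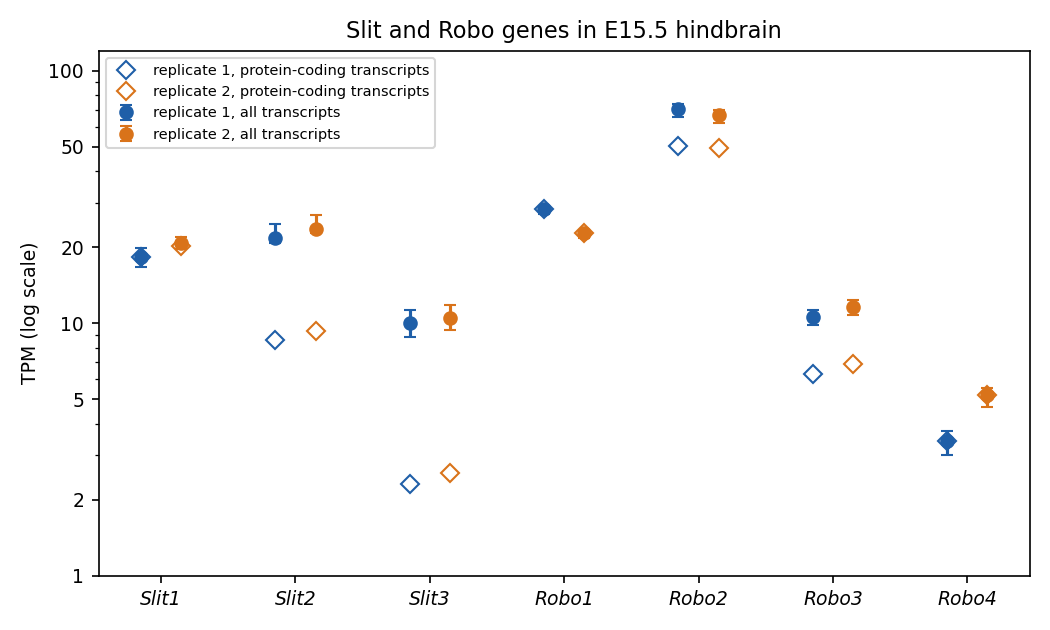
TPM of each Slit and Robo gene on a log axis in replicate 1 (blue) and replicate 2 (orange), with circles for all transcripts of the gene, bars for the deposited interval of that TPM, and diamonds for the summed TPM of its protein-coding transcripts. Robo2 is highest in both libraries at 70.8 and 67.0 TPM, and the diamonds of Slit2 and Slit3 lie far below their circles.

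By level per length, the order was Robo2, Robo1, Slit2, Slit1, Robo3, Slit3 and Robo4. Robo1 and Slit2 changed places between the libraries, Robo1 being 1.31 times Slit2 in replicate 1 and 0.961 times in replicate 2, so these neighbours did not differ beyond their spread. Robo3 was above Slit3 in both libraries, but their deposited intervals overlapped (9.84 to 11.3 against 8.81 to 11.3 TPM in replicate 1). All 7 members were detected, against 63.1% of 21461 nuclear protein-coding genes. The median of the members was 19.5 ± 1.76 TPM beside 5.72 ± 0.0212 TPM for those genes, and Robo2 lay at percentile 88.6 of them and Robo4 at percentile 46.9. A count of 3 is about the 95% upper limit of the mean count behind a reading of 0. It corresponded to 0.0147 to 0.0587 TPM for the members, and every level was far above that.

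The genes of the other guidance families (netrins, semaphorins, plexins, ephrins, Eph receptors and RGM proteins with their receptors) gave a scale for these levels. Of the 67 such genes found, 2 had a higher mean TPM than Robo2, namely Efnb3 (118 ± 15.7 TPM) and Plxnb2 (76.5 ± 7.34 TPM), while 18 were above Robo1 and 55 above Robo4. Above Slit2 stood 23 of the 67, above Slit1 26, above Robo3 42 and above Slit3 44. Those nearest in mean TPM to Robo2 were Plxnb2, a semaphorin receptor, and Rgmb (56.5 ± 6 TPM). Nearest to Robo1 were Plxna2 (25.5 ± 1.41 TPM) and Efna2 (25.2 ± 2.69 TPM). Slit1 was closest to the netrin receptor gene Unc5c (19.6 ± 5.39 TPM) and to the Eph receptor gene Ephb2 (19.2 ± 0.552 TPM), and Slit2 to the netrin receptor gene Dcc (22.2 ± 7.14 TPM) and to the ephrin gene Efnb1 (23.4 ± 0.141 TPM). Slit3 was closest to the plexin gene Plxnc1 (10.2 ± 0.354 TPM) and Ephb3 (9.99 ± 0.276 TPM). Robo3 stood beside the semaphorin gene Sema3c (11.03 ± 0.594 TPM) and Epha10 (10.6 ± 0.297 TPM), and Robo4 beside Sema3b (3.89 ± 0.269 TPM) and Ntng2 (3.75 ± 0.926 TPM). Likeness here is the difference in log2 mean TPM over 2 libraries of 1 tissue, and it says nothing of a shared pattern across conditions.

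Beneath the gene levels, the members differed in how much of their RNA was assigned to protein-coding transcripts. Of the 49 transcripts 21 were annotated as protein coding, and 12 were at 0 in both libraries, 9 of them among the 20 transcripts of Slit2. Robo1 had 1 transcript in the tables, Robo1-201, which starts at position 72663149, downstream of the gene's start in the newer annotation. With that 1 coding transcript, the coding share of Robo1 was fixed at 100%. For Robo4, 100% of the TPM was in coding transcripts in both libraries, and for Slit1 100% and 97.7%. Coding transcripts held 71.1% and 73.4% of the TPM of Robo2, 59.8% and 59.6% of that of Robo3, 39.5% and 39.2% of that of Slit2, and 23.0% and 24.3% of that of Slit3. The 2 pools gave nearly the same shares for each of these 4 genes. Total RNA can hold unspliced RNA, and its part in the transcripts that carry intron sequence was not tested. Taking coding transcripts alone, a choice made after seeing the data, Slit2 was no longer above Slit1 but had 8.92 ± 0.523 TPM, against 19.3 ± 1.41 TPM. On that scale Slit3 became the lowest of the 7 at 2.42 ± 0.177 TPM, and Robo2 remained highest at 49.8 ± 0.792 TPM.

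**Figure D2:**
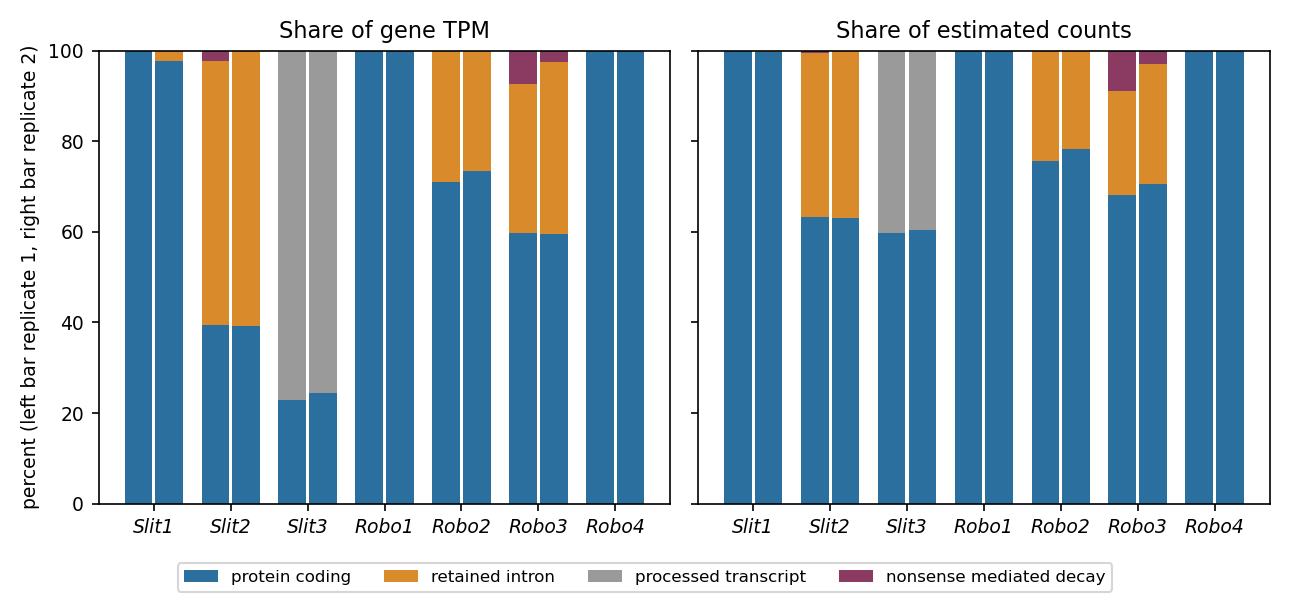
Share of each gene's TPM (left panel) and of its estimated counts (right panel) by annotated transcript type, in percent, with the left bar of each pair for replicate 1 and the right bar for replicate 2. For Slit3 the coding share is 23.0% and 24.3% of TPM but 59.7% and 60.5% of counts, because TPM is per length and the coding transcript is longer.

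Shares by TPM and by counts differ because TPM divides by length. The noncoding transcripts of Slit2 and Slit3 are shorter than their main coding transcripts, and TPM weights them more than counts do. Of the estimated counts of Slit2, 63.3% and 63.1% were in coding transcripts, and of Slit3 59.7% and 60.5%. For 3 of the 6 members with several transcripts (Slit2, Slit3 and Robo2) the transcript of highest TPM was not the one of most counts, against 12.6% of 10400 genes with several transcripts. The transcript of highest mean TPM was not protein coding in 2 of these 6 (Slit2 and Slit3), against 9.93% of 9877 coding genes. It was the same in both libraries in all 6, while it differed between the libraries in 8.12% of the 10400 genes. It held 50% or more of the gene's TPM in both libraries in 4 of the 6 (Slit1, Slit3, Robo3 and Robo4), against 70.3% of those genes.

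Slit1 RNA was split between 2 long coding transcripts. Slit1-201 had 9.33 and 10.55 TPM, which were 51.1% and 50.8% of the gene. Slit1-203 had 6.94 and 9.62 TPM, or 38.0% and 46.4%, and has a different first exon start and a last exon that keeps the 799 nt of intron 36 of Slit1-201 (chr19:41600690-41601488). The short coding model Slit1-205 had 2 TPM in replicate 1 and 0 in replicate 2, where its deposited interval reached 0.98 TPM.

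The transcript of highest TPM in Slit2 was Slit2-207, a retained-intron transcript that follows the gene for 6 exons and ends 840 nt into intron 6 of Slit2-202 (chr5:48182318-48183157). It had 7.86 and 8.38 TPM, or 36.3% and 35.3% of the gene. The coding transcript Slit2-202 followed with 5.92 and 6.89 TPM, and by counts it led with 47.4% and 49.9%. Slit2-209, another retained-intron transcript of 388 nt in the tables, had 2.74 and 2.97 TPM from only 20.5 and 23.4 estimated counts. Slit2-217, the coding transcript with the 27-nt exon, had 2.38 and 2.01 TPM, and it carried 26.8% and 20.6% of the TPM of the transcripts that span that position. The 24-nt exon was included in 97.1% and 95.8% of the TPM spanning it. Both shares rest on M21 exons, and all coding Slit2 models named here changed length between releases.

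In Slit3, a noncoding processed transcript took most of the TPM. Slit3-202 (1218 nt) had 6.84 and 7.53 TPM, or 68.3% and 71.9% of the gene. Its first exon starts 44 nt before exon 6 of the coding transcript Slit3-201, inside intron 5, and its last exon runs on for 200 nt into intron 14, where it ends 4.2 kb before the miR-218 sequence in the same intron. Slit3-201 (5228 nt) had 2.3 and 2.55 TPM, or 23.0% and 24.3%. The 305 and 358 estimated counts of Slit3-201 exceeded the 198 and 230 of Slit3-202. The deposited intervals of the 2 transcripts did not overlap in either library, at 1.99 to 2.54 TPM for Slit3-201 and 5.67 to 7.81 TPM for Slit3-202 in replicate 1. Slit3-202 held 74.8% and 74.7% of the summed TPM of these 2 transcripts.

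Robo2 had 4 transcripts at 10% or more of its TPM, and no single one reached 25%. The coding transcripts Robo2-202 and Robo2-203 had 17.4 and 13.8 TPM in replicate 1, and 16.0 and 15.1 TPM in replicate 2. By TPM Robo2-202 was higher in both, though the deposited intervals overlapped in replicate 2 (14.1 to 16.9 against 14.0 to 15.8 TPM). By estimated counts Robo2-203 was higher in both, with 2863 and 3320 against 2659 and 2578. In M21, Robo2-203 holds the 126-nt and 273-nt exons that Robo2-202 lacks. The retained-intron transcript Robo2-209, which has 2 exons and ends in intron 2 of Robo2-203, had 17.1 and 14.7 TPM. The short coding model Robo2-205 (519 nt in the tables) had 9.75 and 8.57 TPM, with wide deposited intervals of 6.13 to 13.1 and 5.35 to 12 TPM. Its annotated start lies inside the 126-nt exon, and no share is given for either exon. Models that bear on them changed between releases, as did models behind the shares given for Slit2, Robo3 and Robo4.

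Retention of an intron near the 3′ end of Robo3 is known to give the receptor a different tail in commissural neurons. The coding transcript Robo3-202, with 28 exons, led with 6.31 and 6.88 TPM, or 59.8% and 59.6% of the gene. Retained-intron transcripts followed, Robo3-206 with 2.44 and 2.6 TPM and Robo3-203 with 1.02 and 1.79 TPM. Intron 26 of Robo3-202 (405 nt, chr9:37416921-37417325) is kept whole in Robo3-203 and in Robo3-205, a transcript annotated for nonsense-mediated decay. Robo3-205 is outside the 10% limit and was named after its values had been seen, with 0.78 and 0.28 TPM. Together these 2 held 17.1% and 17.9% of the TPM of the transcripts that span the intron, by M21 exons. Robo3-202, one of the transcripts spanning it, changed length between releases. The 2 moved in opposite directions between the pools, Robo3-203 from 1.02 to 1.79 TPM and Robo3-205 from 0.78 to 0.28 TPM. Robo3-205 had 98.5 and 37.2 estimated counts with deposited posterior SDs of 33.34 and 27.95. The like shares therefore do not show a steady rate of retention. The summed TPM of the rhombic lip and commissural markers was lower in replicate 2, and the part of those cells in the Robo3 level was not tested.

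In Robo4, the coding transcript Robo4-201 was level between the pools at 2.79 and 2.89 TPM. Robo4-203 stood at 0.09 TPM in the first pool and 2.31 TPM in the second, from 8.4 and 238 estimated counts with deposited posterior SDs of 21.1 and 52.6. Its deposited intervals, up to 0.694 TPM and from 1.10 TPM, did not overlap. Robo4-202 had 0.52 TPM in replicate 1 and was listed at 0 in replicate 2, with a deposited upper bound of 0.476 TPM. The 21-nt segment was in 17.9% of the Robo4 TPM spanning it in replicate 1 and 44.4% in replicate 2. In M21, Robo4-203 lacks exon 2 of Robo4-201, 333 nt inside coding sequence (chr9:37402555-37402887) that are not printed here. That exon was in 97.4% of the Robo4 TPM spanning it in replicate 1 and 55.6% in replicate 2. Both segments' shares rest on M21 exons, and Robo4-201 and Robo4-203 changed length between releases. The assignment between these overlapping models is uncertain where posterior SDs are as large as these.

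**Figure D3:**
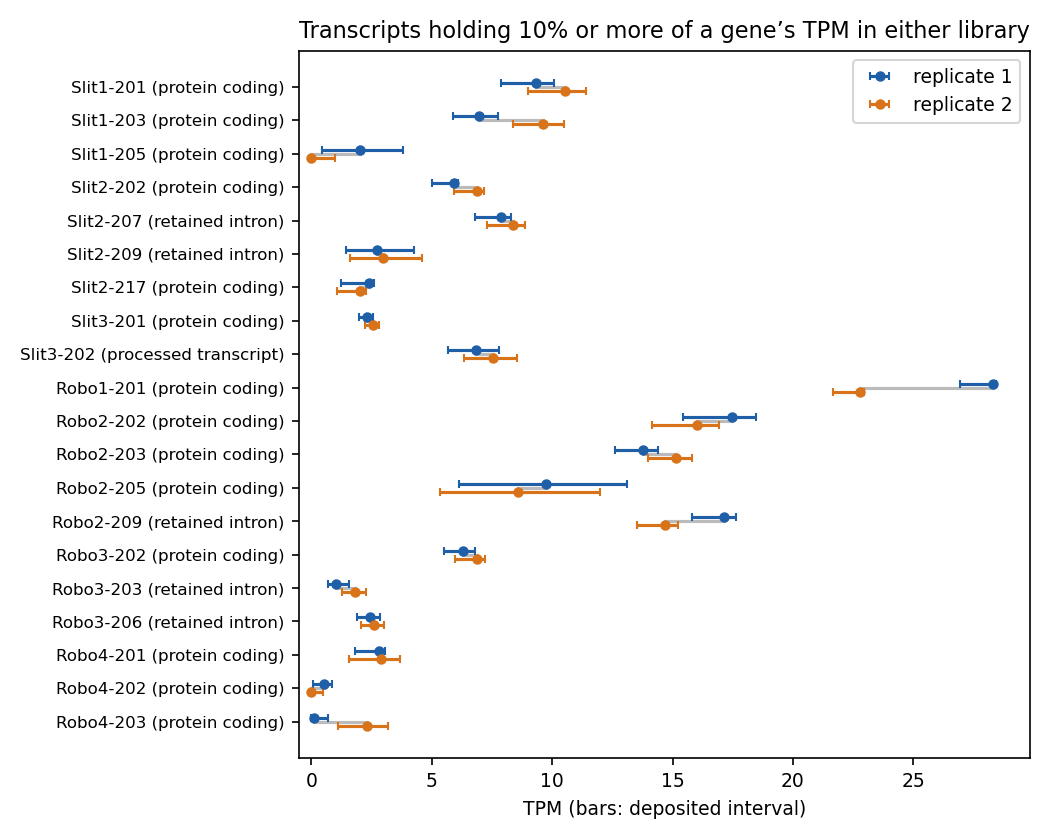
TPM of the 20 Slit and Robo transcripts that hold 10% or more of their gene's TPM in either library, with a point for each library (blue replicate 1, orange replicate 2) and bars for the deposited interval. Slit3-202 lies above Slit3-201 in both libraries, and Robo4-203 is at 0.09 TPM for replicate 1 and 2.31 TPM for replicate 2.

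**Figure D4:**
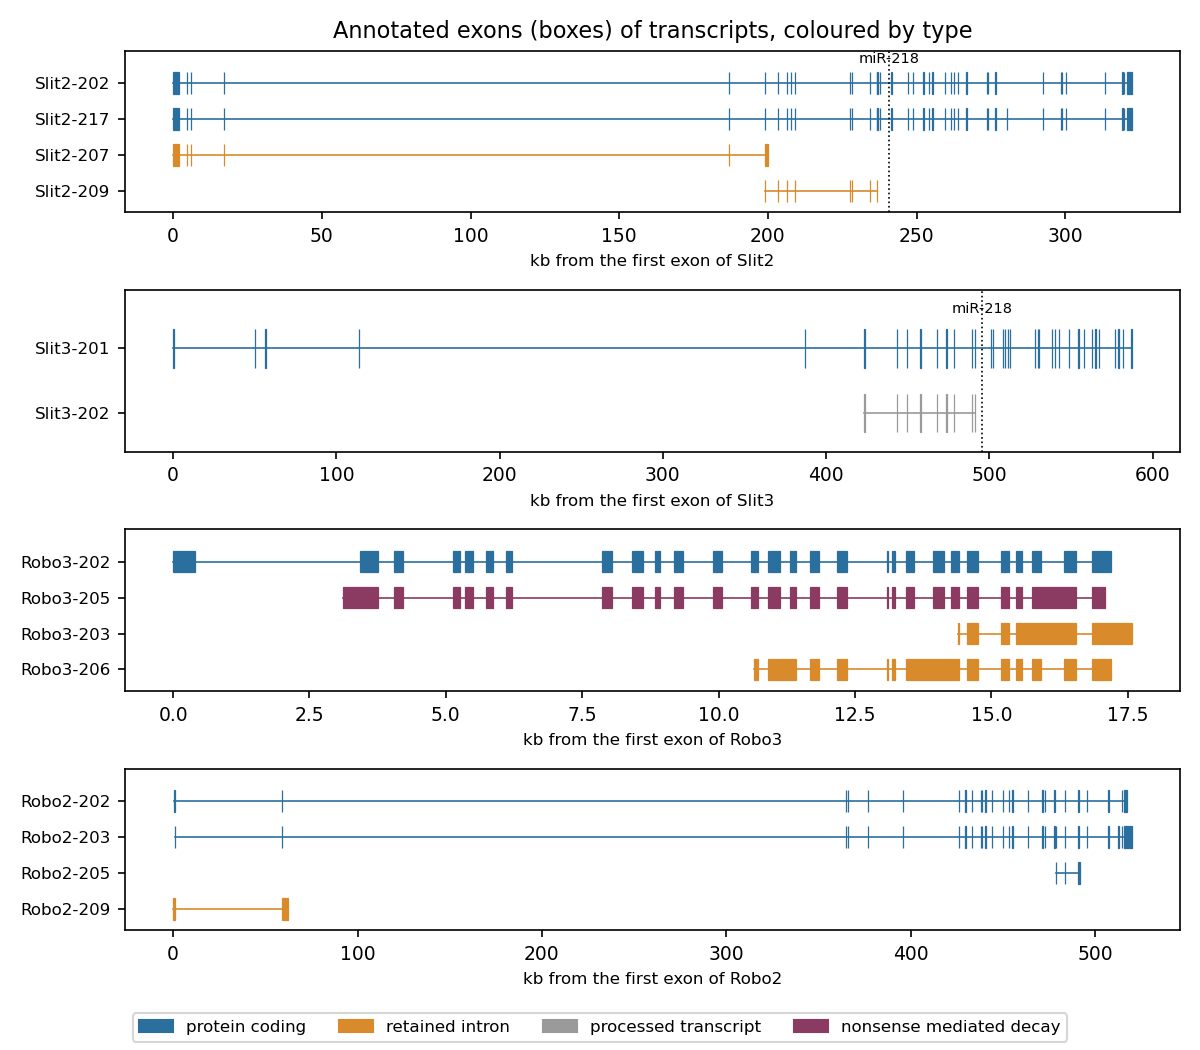
Annotated exons (boxes) and introns (lines) of named transcripts of Slit2, Slit3, Robo3 and Robo2 in kb from the gene's first exon, coloured by transcript type, with the dotted line at the mature miR-218-5p sequence. Slit2-207 ends after 6 exons, and Slit3-202 starts inside the gene and ends 4.2 kb before miR-218.

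The counts behind these levels allowed the 2 pools to be compared gene by gene. The ratio of replicate 2 over replicate 1 was taken after TMM scaling of counts, a scaling that assumes most genes are alike between libraries, with a 95% exact (Clopper-Pearson) interval that covers counting error only, since the tables carry no molecular identifiers. Of the 7 members 1 passed a 1.5-fold difference, against 6.48% of 17048 genes whose mean count was at least 20. That member was Robo4, with 319 estimated counts in replicate 1 and 521 in replicate 2, a ratio of 1.51 (1.31 to 1.75) and a log2 ratio of 0.60. Its interval reached below 1.5, and the call was lost under scaling to spike-ins (log2 ratio 0.48) and in TPM with a pseudocount of 1 (log2 ratio 0.49). Of the genes compared, 93.8% had a smaller absolute log2 ratio. All 8 endothelial markers were detected, none passed 1.5-fold, and their summed TPM was 205 in replicate 1 and 204 in replicate 2, with Cldn5 at 93.9 and 89.2 TPM and Esam at 36.4 and 36.6 TPM. The part of endothelial cells, and that of Robo4-203, in the higher Robo4 of replicate 2 was not tested.

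Robo1 was the member that was lower in replicate 2 by the most. Its 5465 counts in replicate 1 and 4646 in replicate 2 gave a ratio of 0.788 (0.758 to 0.819) and a log2 ratio of -0.34. The deposited TPM intervals, 26.96 to 28.4 and 21.7 to 22.9 TPM, did not overlap. Of the genes compared, 84.7% had a smaller absolute log2 ratio than Robo1. Robo2, with 8303 and 8519 counts, was nearly level at a ratio of 0.951 (0.922 to 0.980). Both kept their direction under each scaling tried.

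After TMM scaling of counts the other 4 members were higher in replicate 2 by less than 1.5-fold, though Slit3 and Robo3 were lower with spike-in totals. Slit1, with 2253 and 2910 counts, had a ratio of 1.20 (1.13 to 1.27). Slit2, with 2184 and 2551 counts, had a ratio of 1.08 (1.02 to 1.15). The intervals of Slit3 (512 and 592 counts, ratio 1.07, 0.95 to 1.21) and Robo3 (1106 and 1231 counts, ratio 1.03, 0.95 to 1.12) included 1. Scaling to spike-ins moved the median gene by -0.11 on the log2 scale, and on that scale Slit3 was at -0.01, Robo3 at -0.07 and Slit2 at 0.00044. The counting interval excluded 1 for 5 of the 7 members, against 38% of the 17048 genes and 45% of the 10907 genes with at least the mean count of Robo4, the member of fewest counts. Over the 17048 genes compared, the median absolute log2 ratio was 0.11 and the SD of the log2 ratio was 0.40.

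**Figure D5:**
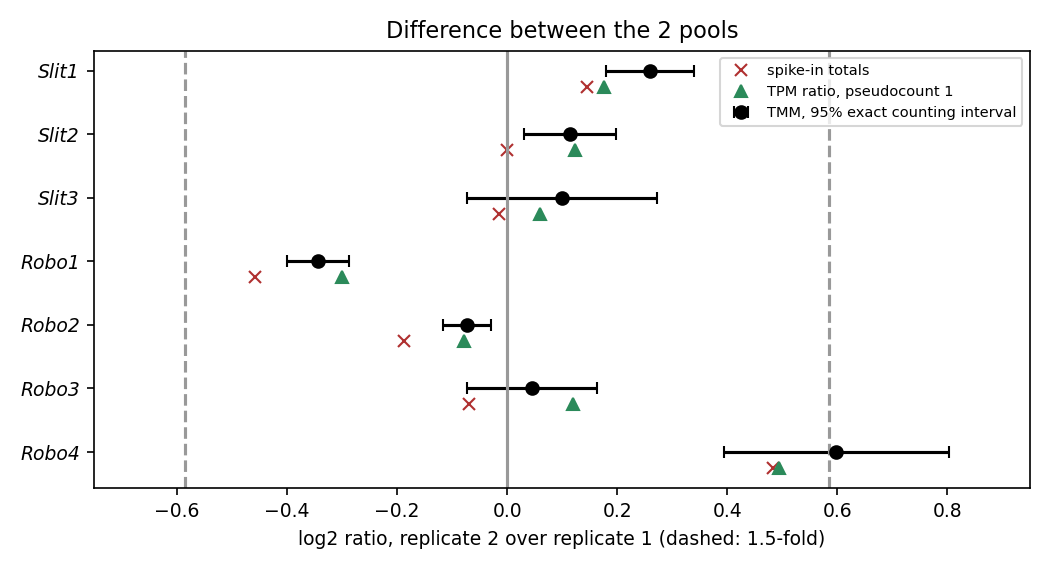
Log2 ratio of replicate 2 over replicate 1 for each Slit and Robo gene after TMM scaling (black points, with 95% exact counting intervals), after scaling to spike-in totals (red crosses) and from TPM with a pseudocount of 1 (green triangles), with dashed lines at 1.5-fold. Robo4 at 0.60 is past the line under TMM alone of these 3, and Robo1 is lowest at -0.34 under TMM.

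Of 60 further genes of the pathway, 57 (95%) were detected, against 63.1% of nuclear coding genes, with a median of 27.8 ± 1.67 TPM beside 5.72 ± 0.0212 TPM. Between the pools, none of the 58 compared was higher in replicate 2 by 1.5-fold and 3 were lower, namely Dcc, Lhx2 and Lhx9, while 6.48% of all genes compared passed that fold in either direction. Dcc and Lhx2 are named after their values were seen. Among co-receptors, co-ligands and binding partners all 19 were detected, with a median of 22.4 ± 1.22 TPM. Nell2, which encodes a ligand of Robo3, was highest at 139 ± 4.21 TPM, followed by the heparan sulfate proteoglycan gene Sdc3 at 132 ± 21.1 TPM and the N-cadherin gene Cdh2 at 104 ± 10.5 TPM. Dcc, the netrin receptor whose signal Robo proteins can silence, had 27.2 and 17.1 TPM. Its ratio was 0.626.

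Downstream of the receptors, all 20 GTPase regulators and adaptors were detected, at a median level of 29.3 ± 1.24 TPM and with none past 1.5-fold. The small GTPase genes themselves led, Cdc42 with 752 ± 10.3 TPM, Rac1 with 257 ± 20.4 TPM and Rhoa with 225 ± 5.10 TPM. Of 9 genes for processing, trafficking and turnover of the receptors, 8 were detected, at a median level of 64.1 ± 3.66 TPM and with none past 1.5-fold. Ndfip1, an adaptor of Nedd4 family ubiquitin ligases, had 806 ± 31.4 TPM, and the ubiquitin ligase gene Nedd4 had 325 ± 18.6 TPM. Prrg4, which encodes a membrane protein related to a fly regulator of Robo at the cell surface, was the 1 not detected at 0.52 and 0.55 TPM.

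Of 12 transcription and RNA regulators of the receptors, 10 were detected, with a median of 18.9 ± 3.29 TPM. The RNA-binding protein genes Nova1 (53.4 ± 0.148 TPM) and Msi1 (48.3 ± 0.537 TPM) were highest and level between the pools. Lhx9, a LIM homeobox gene of dorsal commissural neurons, had 50.75 and 12.8 TPM. Lhx2, its close relative, had 50.7 and 9.96 TPM, and both factors are known to control Robo3 in spinal commissural neurons. Robo3 had 10.55 and 11.55 TPM in the same 2 libraries, a ratio of 1.03 (0.95 to 1.12). Whether Lhx2 or Lhx9 bears on the Robo3 level in this tissue was not tested. Sim1 and Sim2 were not detected, with at most 0.08 and 0.06 TPM.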

How the data were processed

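Total RNA-seq of hindbrain was analysed in 1 group of 2 libraries, from a gene table and a transcript table each. The notes deposited with the files name mm10 and GENCODE M4 as build and annotation. Aligner, quantifier and strand setting, not given in the sources used here, were not assumed. The deposited estimated counts, 1 per gene or transcript, are not normalized. The deposited TPM values are scaled over all features, spike-ins included, and the deposited FPKM values served as an alternative for detection. The deposited percent of a gene held by a transcript was recomputed from TPM. The deposited bounds of the TPM interval (at a level the headers do not state) and posterior SDs, a signal per the file headers, mark uncertainty. Effective length was transcript length less 99 nt.

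Symbols, types and sequences came from GENCODE M21 (42462 of 43346 identifiers matched). Of the 49 transcripts, 27 had the same length in both releases. The 97 spike-ins (2.86% and 3.08% of counts) and 26248 numeric identifiers (5.61e-05% and 2.69e-05%) stayed out of library sizes.

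Scaling of counts used edgeR 4.0.16 (TMM, R 4.3.3), with a prior count of 0.5 and a mean count of 20 or more. The intervals used counts rounded to whole numbers. DESeq2 1.42.0 size factors were an alternative. Overlapping and antisense genes cannot be told apart without strand, and 4930518C09Rik, antisense inside Slit2, had 0.41 and 0.58 TPM.

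Members, lists and alternatives were chosen with earlier results of these data known. Named were every member, transcripts at 10% or more of their gene in either library, the 3 highest of each pathway role and those not detected, 2 guidance genes nearest each member, and the 2 highest of each marker list. Some genes that this rule takes are left out here. Nothing shows separate litters beyond the label of biological replicate. The meninges and choroid plexus lists were also read. All 6 meninges markers were detected (sums 540 and 442 TPM), led by Col3a1 at 188 ± 23.4 and Col1a2 at 107 ± 16.6. Of 5 choroid plexus markers 4 were detected (sums 926 and 1251 TPM), led by Ttr (1025 ± 223) and Folr1 (32.6 ± 12.4). Of these 5, 4 were higher in replicate 2. Otx2, named after its values were seen, was lower there (28.1 and 17.2 TPM).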

Additional observations from a re-analysis of the deposited data

How the results depend on the processing

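The 7 members and 57 or 58 of 60 pathway genes were detected under every minimum, unit and single library tried. TPM rescaled over nuclear coding genes raised the Slit sum to 66.7 and the Robo sum to 139.75, and coding transcripts alone, added after seeing the data, lowered them to 30.6 and 86.2. Without replicate 1 or replicate 2 the sums stayed at 49.96 to 54.94 for Slit and 106.57 to 113.04 for Robo. The number of members past 1.5-fold was 0 with spike-in totals and 0 in TPM with a pseudocount of 1, where Robo4 fell short. It was 1 under the other 5 alternatives. Among those 5, no filter on counts and a minimum mean count of 100 could not change it, since every member had more counts. Members with a leading transcript of 50% or more were 3 by posterior TPM, where Slit1 had 49.1%, 3 by counts, 5 among coding transcripts, and 4 in each library alone. No paired analysis was possible because there is 1 group only. With 2 pools, the spread rests on a single difference, and levels of transcripts with few counts, such as Slit2-209, have little depth behind them.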
